A study of Mus musculus with 6 samples.

Results

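The first wave of the normal ovulatory response was described in granulosa cells of wild type mice, as the difference between 1 array of cells taken 2.5 h after human chorionic gonadotropin (hCG) and 1 array of cells taken with no hCG. The genes described were those whose brighter array of this pair reached an intensity of 64, which held for 11487 of the 18194 genes on the arrays. The limit of 64 lies just above the median probe set of each array (54 or 55) and served as the lower edge of usable signal. A gene was called higher or lower when the arrays differed at least 2-fold, a log2 difference of 1 or more in size. With 1 array on each side there is no replicate error, and no p-value belongs to a difference of this pair.

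Both arrays held RNA of ovarian granulosa cells from 23-day-old wild type mice injected 48 h before with 5 IU of equine chorionic gonadotropin (eCG), a hormone under which follicles grow to the preovulatory stage. The first group had then received 5 IU of hCG and was collected 2.5 h later, and its counterpart was collected after the 48 h of eCG without hCG. No array without hCG stands at the later time, so hCG and the added time after eCG cannot be told apart. A wild type array at 4 h after hCG, and arrays of knockout cells at hCG 2.5 h and with no hCG, were used beside the pair. The knockout mice, of the same age and treated alike, lacked ERK1 and carried a floxed ERK2 gene with Cyp19CRE, in which a Cyp19 promoter directs Cre recombinase to the granulosa cells, so that the deletion of ERK2 depends on where and when that promoter is active. Per the labels the groups are single samples, and nothing is said of pooled animals.

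In the intact animal the surge of luteinizing hormone, which hCG mimics at the same receptor, raises cAMP in the outer granulosa cells of the preovulatory follicle. Protein kinase A then switches on immediate early genes and the genes of EGF-like growth factors, which are shed from the cell surface, act on EGF receptors of neighbouring granulosa and cumulus cells, and activate the kinases ERK1 and ERK2. Out of this relay come cumulus expansion, prostaglandin synthesis, rupture of the follicle wall and the turn from estrogen to progesterone production.

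The wild type arrays carried the mark of their labelled cell type. All 12 measured granulosa cell markers, among them the inhibin subunit genes Inha and Inhba and the transcription factor gene Foxl2, were above 64 with and without hCG. Oocyte markers were also present, with 16 of 18 on the arrays over the limit, and so were markers of theca cells (7 of 8), while 0 of 7 neutrophil markers reached it. RNA integrity differed between the arrays, with a 3′ to 5′ signal ratio of Gapdh of 3.55 at hCG 2.5 h and 4.79 with no hCG, and of beta-actin of 2.56 at hCG 2.5 h and 3.18 with no hCG. In the knockout pair the ratios were lower at hCG 2.5 h as well. Gapdh had 3.99 at hCG 2.5 h and 5.21 with no hCG there, and beta-actin 3.11 and 3.30. In bulk RNA such as this, fewer cells of a type and less RNA per cell cannot be told apart.

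Of the 11487 genes, 407 (3.54%) were at least 2-fold higher at hCG 2.5 h and 118 (1.03%) were at least 2-fold lower, so that 10962 (95.4%) lay within 2-fold. The higher side reached far and the lower side did not. At least 4-fold differences were found for 148 genes on the higher side and 0 on the lower, 56 genes were at least 8-fold higher and 25 at least 16-fold higher, and the largest lower difference was a log2 difference of -1.90. When values under 64 were first raised to 64, which removes folds that rest on background, 45 and 20 genes stayed past 8-fold and 16-fold. For scale, the knockout and wild type arrays with no hCG differed by the same rule in 92 (0.811%) and 103 (0.908%) of 11346 genes, higher and lower in knockout, so the share called lower at hCG 2.5 h was close to that of a pair of arrays that differ in genotype and not in hCG.

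Most of the remaining genes sat slightly below their level without hCG. The median log2 difference over all 11487 genes was -0.21, and 8202 genes (71.4%) were below 0. The middle of the distribution was narrow, from -0.44 at the lower quartile to 0.04 at the upper, and the outer percentiles were lopsided, with the highest 1% of genes above 2.24. Near the 2-fold limit the call is sharp while the values are not. There were 32 genes called higher with log2 differences of 1 to 1.1 and 59 just short of it at 0.9 to 1, and on the lower side 55 genes just inside and 119 just outside.

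Other probe sets give a check of each call on the same arrays. Among the 181 genes called higher with a second probe set over the limit, that probe set was also called higher in 148 (81.8%) and had the same sign in 178. On the lower side the second probe set was also called in 12 of 51 genes (23.5%), with the same sign in 47. Scaling moved the sides unequally too, since with cyclic loess across the 6 arrays 491 genes were higher and 50 lower, and with differences centred on the median of all genes 549 were higher and 28 lower.

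**Figure D1:**
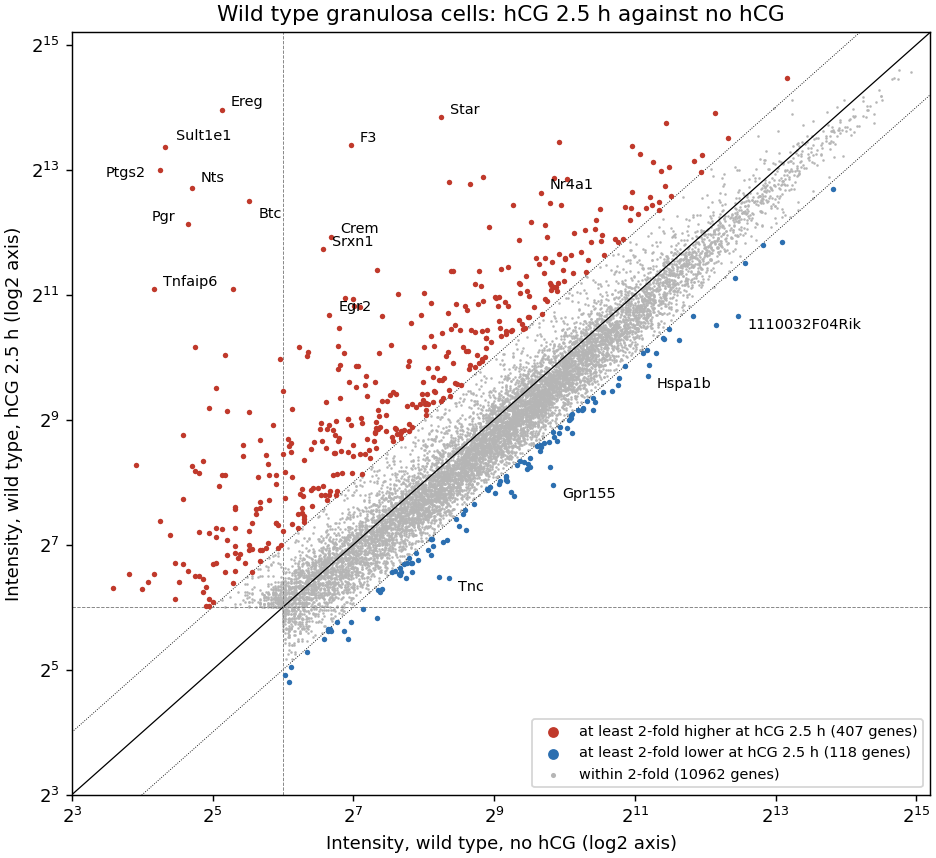
Intensity of each of 11487 genes in wild type granulosa cells at hCG 2.5 h (y axis) against no hCG (x axis), both on log2 axes, with 1 point per gene. Dotted lines mark 2-fold, dashed lines the intensity of 64. The 407 higher genes reach far above the diagonal, up to Ereg, Sult1e1 and Ptgs2 whose values without hCG lie under 64, while the 118 lower genes stay close to the 2-fold line.

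The 10 genes with the largest differences from a level under the limit were genes of growth factors, prostaglandin and steroid metabolism, peptides and matrix. Ereg (epiregulin, an EGF-like growth factor) had an intensity of 15945 at hCG 2.5 h and 35 with no hCG. Sult1e1 (estrogen sulfotransferase, which inactivates estradiol) had 10513 at hCG 2.5 h and 20 with no hCG, at least 164-fold higher. Folds given for these genes are lower bounds, taken against 64, because the array without hCG was at background for each of the 10. Ptgs2 (prostaglandin synthase 2) read 8192 at hCG 2.5 h against 19, and Nts (the peptide neurotensin) 6710 against 26, a bound of 105-fold. Btc (betacellulin) stood at 5768 against 46, at least 90.1-fold higher, and Pgr (the progesterone receptor, needed for follicle rupture) at 4476 against 25, at least 69.9-fold higher. The other 4 were the peptide gene Nmu (neuromedin U, 2179 against 39), the hyaluronan-binding matrix gene Tnfaip6 (2172 against 18), the growth factor gene Epgn (epigen, 1146 against 27) and the oxygen-sensing hydroxylase gene Egln3 (1052 against 36), with bounds between 16.4-fold and 34.0-fold. All 10 were at background without hCG and gave a clear signal 2.5 h after it. Second probe sets gave log2 differences of 6.12 for Ptgs2, 4.41 for Pgr and 5.59 for Btc, but 0.92 for Egln3.

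Of genes with a measurable level before hCG, F3 (tissue factor, which starts blood coagulation) differed most, at 10756 at hCG 2.5 h and 125 with no hCG, an 86.0-fold difference. Star (the carrier of cholesterol into mitochondria) had 14678 at hCG 2.5 h and 304 with no hCG, 48.3-fold higher, and its 3 probe sets gave log2 differences of 4.69 to 5.91. Crem (a cAMP-responsive transcription factor that includes the inducible repressor ICER) had 3886 against 103, 37.7-fold higher. Srxn1 (sulfiredoxin, an antioxidant enzyme) had 3385 against 95, 35.6-fold, but its 4 probe sets ranged from 0.55 to 5.16 on the log2 scale. Those 4 genes were detectable at a low level without hCG and stood at least 35.6-fold above it. The next by size were Gm13889 (21.8-fold), the sulfotransferase gene Chst15 (17.4-fold), Procr (the endothelial protein C receptor, 16.7-fold), the synaptic scaffold gene Homer1 (16.6-fold, with probe sets from 0.47 to 4.05 on the log2 scale) and Osgin2 (16.5-fold). After them came Egr2 (16.2-fold), the glutathione transferase gene Gsta2 (15.5-fold), the ectoenzyme gene Enpp3 (15.3-fold), Klf4 (14.0-fold), Junb (13.2-fold) and Ptger4 (a prostaglandin E2 receptor, 13.1-fold).

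Immediate early transcription factors, which cells switch on without new protein synthesis, were higher on a broad front. Of 30 measured, 16 were called higher, 0 lower and 27 lay above their level without hCG, with a median log2 difference of 1.26 against -0.21 over all genes. Beside the counts of this and every later list, 3.54% of all genes were called higher and 1.03% lower. Egr2 (a zinc finger factor) had 1639 at hCG 2.5 h and 101 with no hCG, Klf4 (a Krüppel-like factor) 1805 and 129, and Junb (an AP-1 subunit) 1081 and 82. Ier3 (an early response gene linked to cell survival) had 11105 at hCG 2.5 h and 973 with no hCG, 11.4-fold higher. The orphan nuclear receptor genes were divided, with Nr4a1 at 6344 and 812, Nr4a2 at 482 and 125, and Nr4a3 at 277 and 273. Egr1 had 9767 at hCG 2.5 h and 2152 with no hCG. Fos (5241 and 2660, log2 0.98), Jund (0.30), Fosl2 (-0.15), Egr3 (0.02), Srf (-0.02) and Myc (-0.52) stayed within 2-fold. So the AP-1 genes did not move as a block. Among them Junb, Fosb, Fosl1, Jun and the related Maff and Atf3 were called higher.

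Targets of the cAMP pathway split into a responding and a flat part. Of 22 measured, 9 were called higher and 0 lower, with a median of 0.56, or 0.28 with no limit. Besides Crem and Nr4a1 these were genes that end or shape the cAMP signal itself, the phosphodiesterases Pde4b (485 at hCG 2.5 h and 58 with no hCG, at least 7.58-fold higher), Pde4d (278 and 60) and Pde10a (435 and 197). The peptide gene Adcyap1 (147 and 28), the deiodinase gene Dio2 (205 and 51), the kinase gene Sik1 (161 and 70) and the small GTPase gene Gem (1218 and 498) made up the rest. Core parts of the pathway were within 2-fold, with Creb1 at -0.67, the coactivators Crtc1 at -0.05 and Crtc2 at -0.28, and the kinase subunits Prkar2b at -0.43 and Prkar1b at 0.82.

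The promoters of some of these genes show the elements through which cAMP and AP-1 act. RefSeq windows of 300 bases (250 before and 50 after the start of transcription, build GRCm38.p6) were held for 313 of the 407 genes called higher (76.9%). That is under 80%, so a comparison of motif shares between called and other genes is void. The cAMP response element TGACGTCA, searched on both strands like every motif here, was found in 17 of the 313 genes. How common these letters are is seen in 1.79% of all promoter windows (549 of 27025 genes). Of the windows of all measured genes 3.06% held them (339 of 9303 genes). These 2 sets differ in base composition (median GC 52.7% and 61.0%). The 4 windows below belong to genes among the 17 and were picked after the values were seen. They are Ch25h (cholesterol 25-hydroxylase, at least 11.3-fold higher, chr19:34475099-34475398, minus strand), Plk2 (a polo-like kinase, 10.4-fold, chr13:110394794-110395093, plus strand), Chgb (chromogranin B of secretory granules, at least 4.31-fold, chr2:132781392-132781691, plus strand) and Errfi1 (an inhibitor of the EGF receptor, 6.98-fold, chr4:150854820-150855119, plus strand). Each runs 5′ to 3′ along the gene, with the element in capitals.
Ch25h: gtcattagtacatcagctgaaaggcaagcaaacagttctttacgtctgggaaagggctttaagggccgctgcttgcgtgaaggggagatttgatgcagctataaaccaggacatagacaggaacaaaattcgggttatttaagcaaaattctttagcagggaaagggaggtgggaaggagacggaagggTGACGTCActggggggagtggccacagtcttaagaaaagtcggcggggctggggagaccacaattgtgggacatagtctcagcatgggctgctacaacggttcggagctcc
Plk2: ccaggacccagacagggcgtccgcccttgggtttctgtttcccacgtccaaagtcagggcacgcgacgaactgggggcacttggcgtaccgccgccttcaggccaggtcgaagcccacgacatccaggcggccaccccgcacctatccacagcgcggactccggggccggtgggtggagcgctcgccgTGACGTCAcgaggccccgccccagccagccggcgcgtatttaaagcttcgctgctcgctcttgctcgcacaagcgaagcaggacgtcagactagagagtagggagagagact
Chgb: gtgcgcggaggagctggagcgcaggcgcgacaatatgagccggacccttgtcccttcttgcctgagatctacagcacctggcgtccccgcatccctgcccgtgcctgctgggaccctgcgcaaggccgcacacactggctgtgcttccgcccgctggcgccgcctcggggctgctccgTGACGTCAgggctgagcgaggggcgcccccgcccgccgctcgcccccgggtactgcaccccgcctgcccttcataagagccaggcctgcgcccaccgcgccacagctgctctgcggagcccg
Errfi1: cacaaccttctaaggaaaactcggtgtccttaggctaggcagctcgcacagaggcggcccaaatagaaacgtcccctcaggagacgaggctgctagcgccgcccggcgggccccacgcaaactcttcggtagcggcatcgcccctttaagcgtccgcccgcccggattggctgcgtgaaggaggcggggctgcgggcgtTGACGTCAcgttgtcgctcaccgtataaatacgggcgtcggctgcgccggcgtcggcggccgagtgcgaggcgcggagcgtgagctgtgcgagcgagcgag
In the 4 windows the element begins at positions -61, -62, -72 and -51, counted from the start of transcription. Btg2, Ell2, Maff, Dio2, Has1, Dusp1, Dusp8 and Flt1 were others of the 17. A match of letters is a description of the window and not a bound site.

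Another 4 windows, picked after the values were seen, are shown because their genes were called higher and carry shorter elements. Nr4a1 (chr15:101266596-101266895, plus strand) holds 4 copies of the core TGACG, all on the reverse strand and so read as CGTCA. Ptgs2 (chr1:150099781-150100080, plus strand) holds 1 such core, overlapping an E-box, CACGTG. The core begins at position 14 counted from the RefSeq start of transcription, which was not checked here. The window of F3 (chr3:121723287-121723586, plus strand) has 2 AP-1 sites of the form TGANTCA, at positions -146 and -135, and that of Srxn1 (chr2:152105274-152105573, plus strand) has 2 as well, at -102 and -45. Capitals mark these cores, the E-box and the AP-1 sites.
Nr4a1: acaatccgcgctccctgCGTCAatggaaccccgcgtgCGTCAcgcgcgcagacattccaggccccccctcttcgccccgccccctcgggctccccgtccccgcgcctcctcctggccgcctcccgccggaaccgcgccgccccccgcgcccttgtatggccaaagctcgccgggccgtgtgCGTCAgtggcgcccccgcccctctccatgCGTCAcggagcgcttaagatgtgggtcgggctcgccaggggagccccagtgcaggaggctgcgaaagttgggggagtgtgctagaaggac
Ptgs2: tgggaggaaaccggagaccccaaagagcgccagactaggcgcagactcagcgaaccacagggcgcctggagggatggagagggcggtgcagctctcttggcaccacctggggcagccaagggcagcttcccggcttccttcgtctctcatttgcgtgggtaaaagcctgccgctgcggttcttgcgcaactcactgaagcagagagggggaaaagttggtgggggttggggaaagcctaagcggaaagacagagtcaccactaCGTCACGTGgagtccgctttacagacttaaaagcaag
F3: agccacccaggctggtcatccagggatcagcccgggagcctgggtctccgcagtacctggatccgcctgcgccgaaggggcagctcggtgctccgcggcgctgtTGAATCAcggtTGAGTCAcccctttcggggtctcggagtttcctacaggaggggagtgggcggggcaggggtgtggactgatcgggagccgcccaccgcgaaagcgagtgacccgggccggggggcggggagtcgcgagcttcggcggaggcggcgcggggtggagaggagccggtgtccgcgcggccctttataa
Srxn1: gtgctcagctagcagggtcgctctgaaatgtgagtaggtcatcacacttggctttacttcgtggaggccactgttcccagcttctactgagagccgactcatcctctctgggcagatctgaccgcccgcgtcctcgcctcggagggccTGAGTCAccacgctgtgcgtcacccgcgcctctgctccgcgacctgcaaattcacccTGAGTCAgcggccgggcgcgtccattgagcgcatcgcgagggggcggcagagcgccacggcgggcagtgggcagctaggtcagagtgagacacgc
These shorter motifs are common, since 20.8% of all promoter windows hold the core TGACG, 7.81% an AP-1 site and 7.15% an E-box, and 30.8%, 5.08% and 9.88% of the windows of all measured genes do.

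EGF-like ligands differed from their receptors. Of 11 measured genes of this family and its processing, 4 were called higher and 0 lower, with a median of -0.46. The 4 were the ligands Ereg, Btc and Epgn and the receptor inhibitor Errfi1, which had 7360 at hCG 2.5 h and 1054 with no hCG. The receptor Egfr had 460 at hCG 2.5 h and 632 with no hCG, and Erbb2 and Erbb3 had log2 differences of -0.81 and -0.91. Sheddases that release the ligands were within 2-fold as well, Adam17 at -0.48 and Adam10 at -0.51. Among ligands, Tgfa (-0.21) and Hbegf (-0.82) were not called. The response among the 11 thus lay in 3 ligands and 1 inhibitor. Areg (amphiregulin), another EGF-like ligand, was not among the 11 measured genes, so its response is not described. Every measured receptor and sheddase was below its level without hCG, none of them by 2-fold, but 71.4% of all genes were below theirs.

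Feedback genes of the ERK pathway were called higher in 8 of 17, with 0 lower and a median of 0.96. They code for phosphatases that remove phosphate from MAP kinases and for inhibitors of receptor signalling. Dusp4 had 397 at hCG 2.5 h and 69 with no hCG, Dusp6 had 404 and 94, and Dusp1 had 1886 and 569. Spry2, which restrains growth factor signalling, had 627 at hCG 2.5 h and 179 with no hCG, and Dusp5, Dusp8, Spred2 and Errfi1 completed the set. Not all of the family joined, as Spry1 (-0.20), Spry4 (-0.50), Dusp7 (-0.53) and Dusp14 (-0.61) lay below their level without hCG.

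Genes of the expanding cumulus matrix were higher in 7 of 12, with 0 lower and a median of 1.29, or 0.17 over all 17 on the arrays with no limit. Beside Tnfaip6, Ptx3 (pentraxin 3, which links hyaluronan complexes) had 1007 at hCG 2.5 h and 62 with no hCG, at least 15.7-fold higher. Has2 (the main hyaluronan synthase of the cumulus) had 324 and 29, at least 5.06-fold higher, and Has1 had 180 and 49. The hyaluronan receptor gene Cd44 had 399 at hCG 2.5 h and 87 with no hCG, and Vcan (the proteoglycan versican), already strong, had 11613 and 5151. Synthesis, linking and receptor genes of hyaluronan were therefore all represented among the higher genes. Genes of serum-derived or degrading partners were not, with Itih2 at -0.59, Itih5 at -0.85 and the hyaluronidase Hyal2 at -0.40, although the hyaluronan-degrading Cemip was called higher (278 and 105).

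Prostaglandin genes were called at the committed step, at a pair of receptors and at a transporter. Of 14 measured, 4 were called higher and 1 lower, with a median of -0.14. After Ptgs2 came Ptger4 (1788 at hCG 2.5 h and 136 with no hCG), Ptgfr (the prostaglandin F2-alpha receptor, 1872 and 276, with probe sets from 0.16 to 2.90 on the log2 scale) and the prostaglandin transporter Slco2a1 (913 and 292). The phospholipase gene Pla2g4a (0.51), the terminal synthase Ptges (-0.24) and the degrading enzyme Hpgd (-0.95) were within 2-fold. Ptger3, with 50 at hCG 2.5 h and 100 with no hCG, was just lower, and stood higher by 0.51 on the log2 scale when the knockout array with no hCG took the place of the wild type one.

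Regulators of ovulation, a list of genes tied to follicle rupture, had 12 of 21 called higher and 0 lower, with a median of 1.42, or 0.78 with values under 64 raised to 64. Runx1 (a transcription factor) had 2082 at hCG 2.5 h and 256 with no hCG, Cited4 (a transcriptional coregulator) 895 and 110, and Edn2 (endothelin 2, a constrictor peptide) 345 and 54. Those 3 genes were each at least 5.39-fold higher. The protease genes Adamts1 (3058 and 1029), Adamts4 (430 and 107) and Adamts9 (1356 and 423) were higher too. Pparg (0.64), Hif1a (0.29), Nr5a2 (-0.31), Epas1 (-0.35) and Nrip1 (-0.63), which were well over the limit without hCG, stayed within 2-fold. In the C/EBP family, transcription factors of luteinization, 3 of 5 genes were called higher with a median of 1.25 (0.55 with the mean of all probe sets), namely Cebpa (1301 and 275), Cebpd (245 and 95) and Cebpb (1373 and 576).

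Proteases, inhibitors and coagulation genes of follicle rupture had 10 of 17 called higher and 0 lower, with a median of 1.54 that became 0.91 at a limit of 32 and 0.99 with values under 64 raised to 64. F3 and Procr led it. Plau (urokinase) had 623 at hCG 2.5 h and 98 with no hCG, Pappa (a protease of IGF-binding proteins) 775 and 158, and Timp1 (an inhibitor of metalloproteinases) 1392 and 479. On the other side of the list the metalloproteinase genes Mmp2 (-0.95), Adamts5 (-0.97) and Mmp14 (-0.52) and the plasminogen activator gene Plat (-0.50) lay below their level without hCG. None of these 4 was called.

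The peptide and secretory granule list was small but nearly all of it was higher. Of 10 measured genes 9 were called, 0 lower, with a median of 2.62, or 0.26 over all 23 on the arrays with no limit. These peptides are best known from neurons. Npy (neuropeptide Y) had 555 at hCG 2.5 h and 46 with no hCG, at least 8.67-fold higher, Tac1 (the precursor of substance P) 3756 and 653, and Penk (proenkephalin) 1394 and 335. Chgb had 276 and 36 and Snap25, a vesicle fusion protein, 92 and 14, while Gal (galanin) had 232 and 109. Only Cpe (carboxypeptidase E), which was strong on both arrays at 14698 and 19975, was not called. The list had been put together with the high values of Nts and Nmu known, and 13 of its 23 members on the arrays were under the limit, so its share called says nothing about peptide genes at large.

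Steroid genes were called at both ends of the pathway. Of 18 measured, 4 were called higher and 0 lower, with a median of 0.03. Star and Sult1e1 were joined by Fdx1 (ferredoxin 1, which passes electrons to mitochondrial P450 enzymes, 22681 at hCG 2.5 h and 9151 with no hCG) and Hsd17b7 (6847 and 2756). The side-chain cleavage gene Cyp11a1 had a log2 difference of 0.79, Hsd3b1 of -0.32, Cyp17a1 of 0.03 and Hsd17b1, which forms estradiol, of -0.52. Nr0b1 (DAX1, a nuclear receptor that represses steroidogenic genes) had the lowest value of the list, 245 at hCG 2.5 h and 485 with no hCG, just short of 2-fold. Cholesterol genes had 4 of 21 called higher and 0 lower, with a median of 0.26. The 4 were enzymes of the synthetic pathway, Cyp51 (1994 and 517), Sc5d (4679 and 1401, with probe sets from 0.11 to 1.74), Dhcr7 (2320 and 892) and Idi1 (2232 and 943). The lipoprotein receptor gene Scarb1 was just short of 2-fold, at 16192 and 8106.

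Genes of the preovulatory granulosa cell mostly lay below their level without hCG, short of 2-fold. Of 33 measured, 27 were below their level without hCG, where 71.4% of all genes were below theirs. In the list 0 were called lower and 1 was called higher, with a median of -0.41 against -0.21 over all genes. Fshr (the FSH receptor) had 2233 at hCG 2.5 h and 4454 with no hCG, Foxo1 (a transcription factor held in check by growth signals) 5253 and 10209, and Inhbb (an inhibin and activin subunit) 13813 and 21559. All 3 differences were short of the limit. The 1 gene called higher was the WNT receptor Fzd1, with 610 and 267. In the list of WNT and NOTCH genes 5 of 22 were higher and 1 lower, with a median of 0.21. The NOTCH effector Hey1 had 1413 at hCG 2.5 h and 111 with no hCG, 12.7-fold higher, while its relative Hey2 had 403 and 950, the 1 lower member. Hes1 (609 and 227) and Heyl (703 and 284) were higher, and so was the secreted WNT antagonist Sfrp4 (13712 and 2784). TGF-beta, BMP and activin genes had 2 of 38 called higher, 0 lower and a median of -0.07, where 3.54% of all genes were called higher. The 2 were the inhibitors of differentiation Id2 (2606 and 841) and Id4 (87 and 29). Id4 was under the limit without hCG, and with values under 64 raised to 64 only 1 member of the list was called.

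Cytokine, chemokine and innate receptor genes had 8 of 22 called higher, 0 lower and a median of 0.69, or 0.38 at a limit of 32. Cxcr4 (the receptor of the chemokine CXCL12) had 291 at hCG 2.5 h and 27 with no hCG, at least 4.55-fold higher, Tnfrsf12a (a TNF family receptor) 4576 and 734, and Tnfaip3 (a brake on NF-kappaB) 276 and 56. Nfkbiz, Cish, Tnfsf11, Il1r1 and Vcam1 were the others, of which Tnfsf11 turned to -1.75 against the knockout array with no hCG. Angiogenic factors had 4 of 17 called higher, 0 lower and a median of 0.22, namely Edn2, Efnb2 (926 and 219), Vegfa (1263 and 474) and Vegfc (154 and 74). Angpt2, which loosens vessels, lay at -0.83.

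Regulators of small and heterotrimeric G proteins had 6 of 17 called higher, 0 lower and a median of 0.24, led by Rnd3 (a small GTPase that rounds cells, 1041 at hCG 2.5 h and 81 with no hCG) and Rrad (409 and 51). With values under 64 raised to 64, 4 of these regulators were called higher. Genes that control the decay or translation of mRNA had 6 of 23 called higher, 0 lower and a median of 0.06. Btg1 (10635 and 1983) and Btg2 (1854 and 351), which recruit deadenylases, were among them, as were Zfp36 (514 and 121), which marks AU-rich transcripts for decay, and its relative Zfp36l1 (5420 and 1854). Amino acid and glucose transporters had 4 of 21 called higher, 0 lower and a median of 0.18, with the cystine carrier Slc7a11 at 270 and 50 and the arginine carrier Slc7a1 at 5337 and 1980. In the circadian list 2 of 16 were called higher, 0 lower, with a median of 0.06, the repressors Bhlhe40 (1674 and 325) and Cry2 (1852 and 435).

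Several housekeeping groups stood near or below the median of all genes. Glycolysis and hypoxia genes had 2 of 21 higher (Egln3 and Vegfa) and 1 lower, Pfkl (570 at hCG 2.5 h and 1353 with no hCG, with probe sets from -1.25 to -0.25), with a median of -0.21. Unfolded protein and heat shock genes had 0 of 27 higher and 2 lower, Hspa1a and Hspa1b, with a median of -0.17. Hspa1b had 833 at hCG 2.5 h and 2325 with no hCG, and Hspa1a 110 and 222, but against the knockout array with no hCG Hspa1a stood at 0.20 on the log2 scale. Apoptosis regulators had 0 of 14 higher and 1 lower, the BH3-only gene Bmf, with a median of -0.34. Cyclins and cell cycle inhibitors had 2 of 22 higher and 0 lower, with a median of -0.13. The 2 were Cdkn1a (p21, 2097 and 659) and Gadd45b (1006 and 456). Mitosis genes had 0 of 29 called on either side with a median of -0.39, and DNA replication genes 0 of 28 with a median of -0.28. These proliferation transcripts lay within 2-fold at 2.5 h after hCG, as did 95.4% of all genes. Reference genes such as Actb (-0.14) and Gapdh (-0.12) had 0 of 14 called and a median of -0.13.

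**Figure D2:**
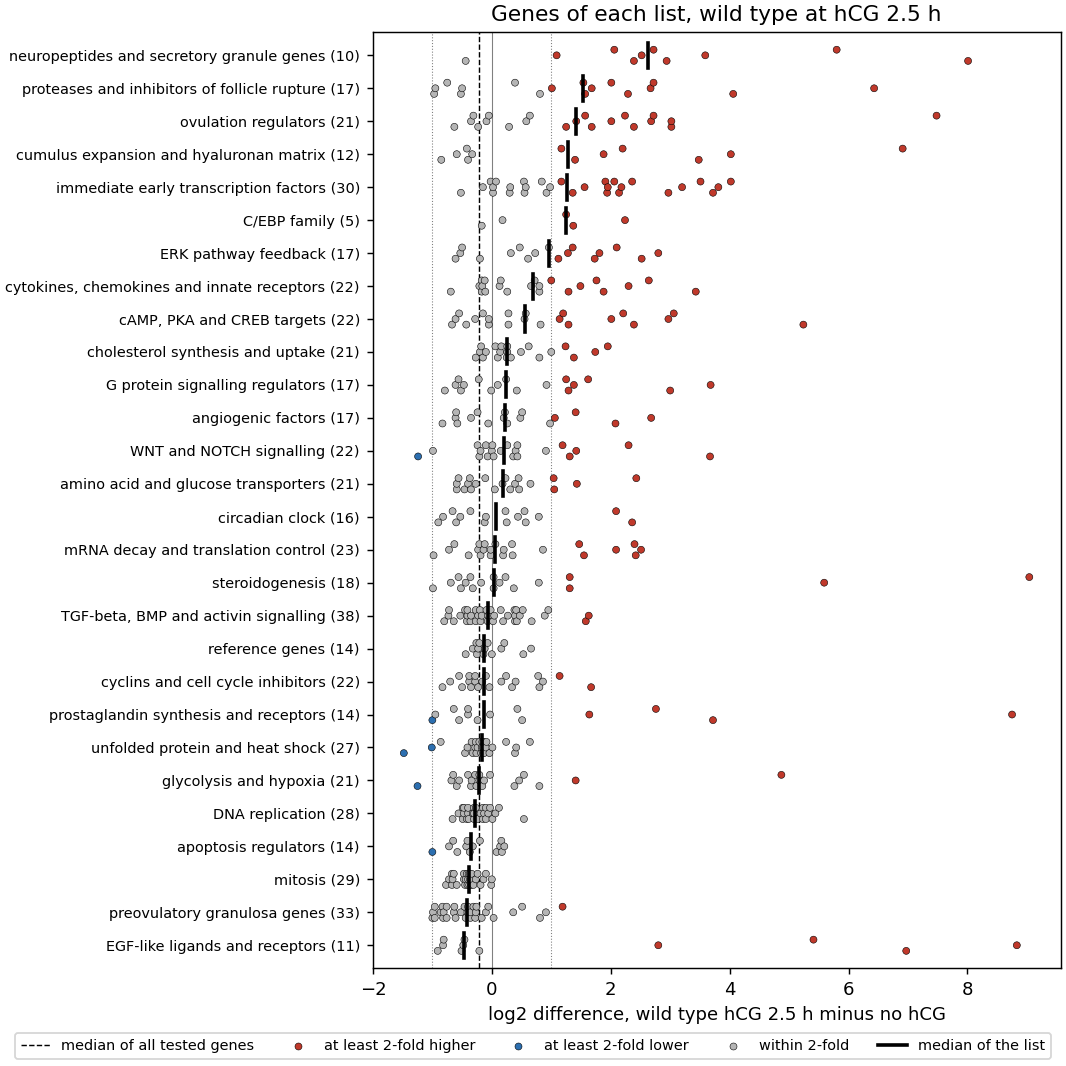
Each point is a gene with its log2 difference in wild type (hCG 2.5 h minus no hCG, x axis), grouped by list (y axis, number of measured genes in brackets) and sorted by the median of the list, drawn as a bar. Peptide genes (median 2.62) and rupture proteases (1.54) lie at the top. EGF-like genes (-0.46) lie at the bottom although 3 of their ligands are among the farthest points to the right. This order depends on the intensity limit used. With no limit the peptide median was 0.26 and the protease median 0.76, below immediate early factors (1.26) and ovulation regulators (1.34). The EGF-like median was then -0.18, above that of the preovulatory list (-0.40).

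The lower side had fewer and smaller differences. Tnc (the matrix protein tenascin C) had 88 at hCG 2.5 h and 329 with no hCG, a log2 difference of -1.90, but its other probe set over the limit gave 0.59. Gpr155 had 248 at hCG 2.5 h and 915 with no hCG (-1.88), 1110032F04Rik had 1609 and 5672 (-1.82), and Myf5 (a myogenic transcription factor) had 89 and 298 (-1.74). Kctd14 had 1466 and 4563 (-1.64), and its 4 probe sets ranged from -1.94 to -1.03. The remaining 10 of the 15 largest lower differences with both arrays over the limit were Rfpl4, Alms1, Hspa1b, Mamdc2, Prr15, Pik3ip1, Pramel25, Satb1, Prkaa2 and Tmem100, from -1.55 to -1.28, and Tmem100 turned to 0.29 against the knockout array with no hCG. Pik3ip1 (an inhibitor of PI3 kinase) had 1238 and 3172, with probe sets of -1.40 and -1.36. Of genes under 64 at hCG 2.5 h, the largest were Tmprss13 (57 and 162), Skida1 (45 and 121), Tcf21 (49 and 117), E430024I08Rik (54 and 125) and Plch1 (63 and 141).

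Markers of other cell types differed between the arrays as follows. All 16 oocyte markers were below their level without hCG, 0 of them by 2-fold, with a median of -0.71 and a summed intensity of 15188 at hCG 2.5 h and 24563 with no hCG. Zp3 (a zona pellucida protein) had 1413 at hCG 2.5 h and 2417 with no hCG. All 12 granulosa cell markers lay below as well (median -0.46, summed intensity 118986 at hCG 2.5 h and 156752 with no hCG). Beside these counts, 71.4% of all genes lay below their level without hCG, with a median of -0.21. Theca cell markers had 0 of 7 higher and 1 lower, Tcf21, with a median of -0.58, and a sum of 11843 and 16113. In the opposite direction, endothelial markers had 3 of 9 called higher, Flt1 (121 and 46), Kdr (452 and 205) and Cldn5 (170 and 79), with 8 of 9 above their level without hCG, a median of 0.56 and a sum of 2118 and 1317. Smooth muscle and pericyte markers had 2 of 8 called higher, Rgs5 (122 and 47) and Mcam (222 and 97), with a median of 0.36, but the smooth muscle actin gene Acta2 was at -0.42 and the sum at 4941 and 5658. Calls in both lists lay near the limit. With values under 64 raised to 64, 2 endothelial and 1 smooth muscle and pericyte markers were called higher. With 32 added to each intensity the counts were 1 and 0, and the endothelial median was 0.45. No member was called among the macrophage and leukocyte markers (0 of 10, median -0.02), lymphocyte markers (0 of 3, 0.15), stromal fibroblast markers (0 of 9, -0.30), surface epithelium markers (0 of 10, 0.06) and the 1 measured red blood cell marker (0.67). The part of these marker shifts, and of the 3′ to 5′ ratios given above, in the differences described was not tested. The angiogenic genes stand beside the endothelial shift and the lower genes beside the oocyte shift.

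**Figure D3:**
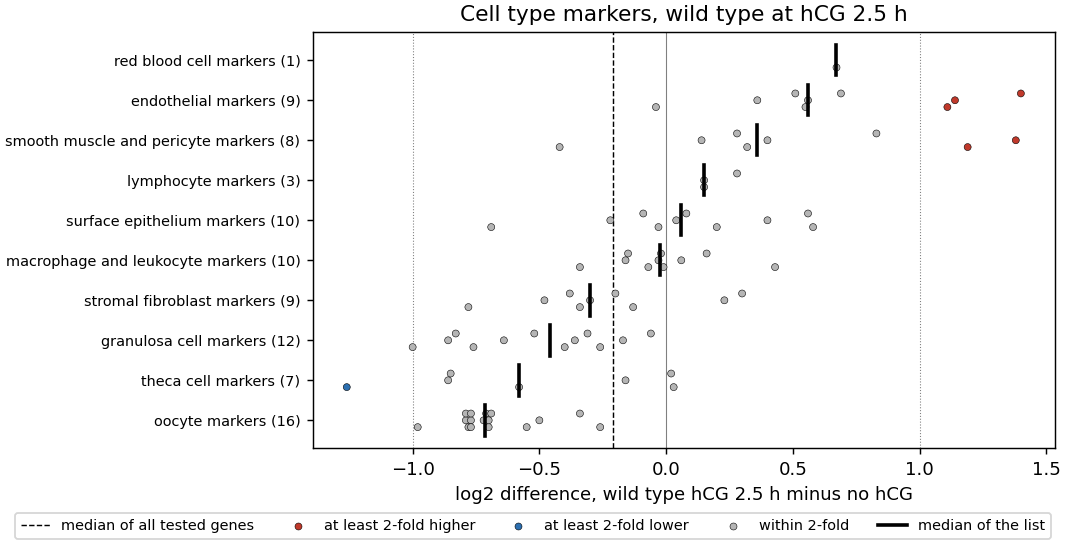
Log2 differences in wild type (hCG 2.5 h minus no hCG, x axis) of cell type markers, 1 point per gene, by list (y axis) with the median as a bar. Oocyte markers (median -0.71) all lie left of 0, and endothelial markers (0.56) mostly to the right.

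A test of the 2.5 h response needs a repeat of the contrast, and the only one here is the knockout pair. An additive limma model of time and genotype on all 6 arrays, with 11153 genes and 2 residual degrees of freedom, called 93 genes higher (0.834%) and 14 lower (0.126%) at hCG 2.5 h over both genotypes after Benjamini-Hochberg adjustment at 0.05. Its p-values rest on how steady the difference was between genotypes and not on the spread between animals. A like difference in both pairs favours a call in such a test but does not ensure it. Differences between the genotypes at 4 h enter the residual as well. By size, 182 genes were called higher in both pairs, more than the 93 of the fit. All 93 higher and all 14 lower genes of the fit were already called by size in wild type. The wild type pair is part of the fit, so its p-values are not separate support for those calls. Ereg rose by 8.44 ± 0.24 (log2, SE; limma adjusted p = 0.000433), Egln3 by 5.42 ± 0.28 (limma adjusted p = 0.00336) and Crem by 5.29 ± 0.29 (limma adjusted p = 0.00359). All 3 were higher in both pairs. Ereg and Egln3 were under 64 without hCG, and so was Pgr, so the fitted sizes of such genes depend on background signal.

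Further genes that rose were Pgr (limma adjusted p = 0.0197), Star (0.042), Srxn1 (0.0137), Ptger4 (0.00968), Procr (0.00243), Klf4 (0.0179), Btg2 (0.00968), Cebpb (0.0365) and Adamts1 (0.0199). Those that fell included Tnc (-2.13 ± 0.18, limma adjusted p = 0.013), Myf5 (0.0375), Kctd14 (0.0428), Pik3ip1 (0.0365) and Hey2 (0.0379). Many of the largest wild type differences did not pass, and their knockout response was smaller. The limma adjusted p was 0.256 for Sult1e1, 0.166 for Nts and for Egr2, 0.123 for Junb, 0.105 for Btc, 0.101 for F3 and 0.0896 for Ptgs2.

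The knockout pair, which shares no array with the wild type pair, had 388 genes higher (3.42%) and 428 lower (3.77%) of 11355. Of the 407 genes higher in wild type, 182 were also called higher in knockout (44.7% of the wild type list and 46.9% of the knockout list), 357 had the same sign and 1 was called lower. Their median log2 difference was 1.68 in wild type and 0.84 in knockout, where the median of all genes was -0.03. Because these genes were selected in wild type, a smaller value in the other pair is built into the comparison, and with 1 array for each group a difference between genotypes cannot be tested. Of the 118 lower genes, 43 were also lower in knockout (36.4% of the wild type list, set against 428 in the knockout list), with medians of -1.11 in wild type and -0.85 in knockout. Oocyte markers were called lower in 16 of 17 in the knockout pair, with a median of -1.27 and a summed intensity of 19003 at hCG 2.5 h and 45676 with no hCG, beside the wild type values given above, and their part in the lower genes of either pair was not tested.

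Some early genes had nearly the same difference in both genotypes. Btg2 had 1854 at hCG 2.5 h and 351 with no hCG in wild type, against 1344 and 248 in knockout, and Tpm4 (a tropomyosin) had 8945 and 2446 in wild type, against 8838 and 2468 in knockout. Others of the 8 closest in size were Phactr1, Tle3, Eid2, Zfand5, Wnt11 and Ehbp1, with log2 differences of 1.12 to 2.05 in wild type. At the other end stood genes with no visible difference in knockout. Ncoa7 (a nuclear receptor coactivator) had 3889 at hCG 2.5 h and 859 with no hCG in wild type, and 743 and 747 in knockout. Cbr3 (a carbonyl reductase) had 493 and 139 in wild type, against 115 and 116 in knockout. The rest of the 8 smallest were Snap25, Cyyr1, Gpat3, Lipg, Prkg2 and Clcf1, of which Snap25, Cyyr1, Lipg, Prkg2 and Clcf1 were under 64 on both knockout arrays. Several leading genes were of this kind too, with Sult1e1 at 23 and 20, Gsta2 at 135 and 118 and Egr1 at 259 and 273 in knockout, while Crem had 3940 and 97.

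**Figure D4:**
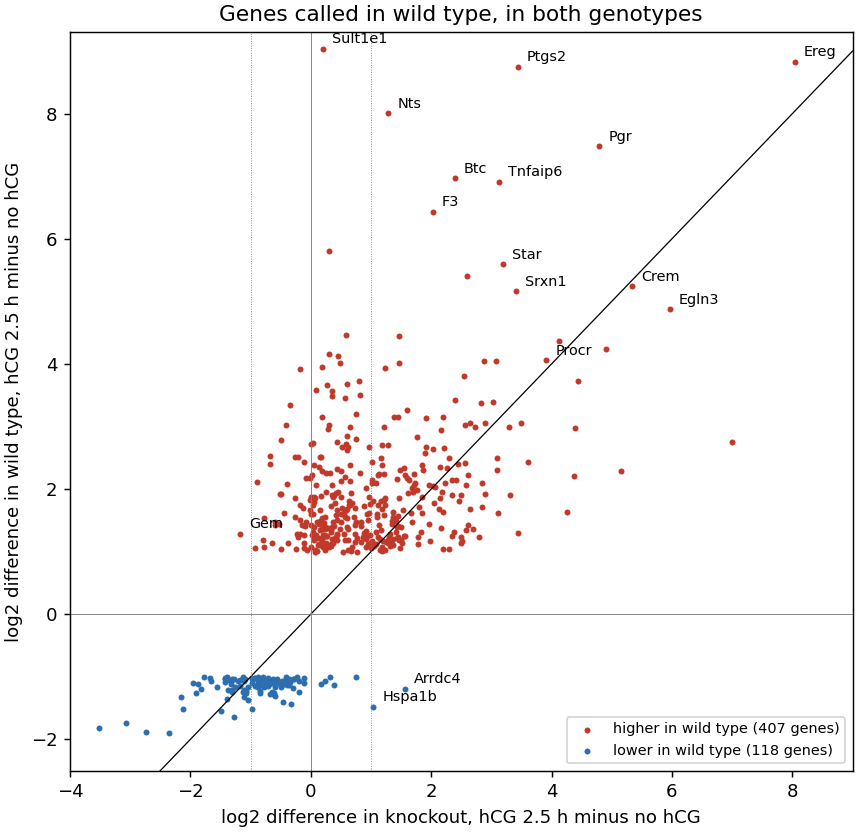
Log2 difference between hCG 2.5 h and no hCG in wild type (y axis) against knockout (x axis) for the 407 higher and 118 lower genes of wild type, 1 point per gene. The diagonal marks equal responses. Ereg, Crem and Procr lie near it, Sult1e1 and Nts far above it, and Hspa1b and Arrdc4 have opposite signs in the genotypes.

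Set beside the later time, the wild type genes called at 2.5 h followed different courses. The arrays at 2.5 h and 4 h share their counterpart without hCG, so the levels are given side by side and no overlap is counted. Because the genes were called on the 2.5 h array, a lower value at 4 h is partly built into the drops. Egr2 had intensities of 101, 1639 and 609 at 0, 2.5 and 4 h, Nr4a1 812, 6344 and 2192, and Nr4a2 125, 482 and 133. Ptgfr had 276, 1872 and 675, and the others of the 8 largest drops were the interferon-induced gene Oasl2, the deubiquitinase gene Yod1, Mfsd4a and the lipid droplet gene Plin4. For Nr4a2, Yod1, Mfsd4a and Plin4 the level at 4 h was 0.785 to 1.08 times that at 0 h, so they stood close to their level without hCG again.

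Another group was higher at 2.5 h and brighter still at 4 h. Prkg2 (a cGMP-dependent kinase) had 41, 110 and 2449 at 0, 2.5 and 4 h, Snap25 14, 92 and 862, and Cxcr4 27, 291 and 1883. G530011O06Rik (37, 561 and 3077), Msc (21, 142 and 892), Zfp804a (22, 70 and 600), Sphk1 (sphingosine kinase, 51, 107 and 750) and the leptin receptor gene Lepr (27, 90 and 454) followed the same course. Each of these 8 was under the limit without hCG and stood 5.04-fold to 22.3-fold above its 2.5 h level at 4 h. The largest genes of the first wave differed in this. Ereg (35, 15945 and 15438) and Star (304, 14678 and 16259) had already come near their 4 h level. F3 (125, 10756 and 7185) was past it and Btc (46, 5768 and 13217) was not yet there.

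**Figure D5:**
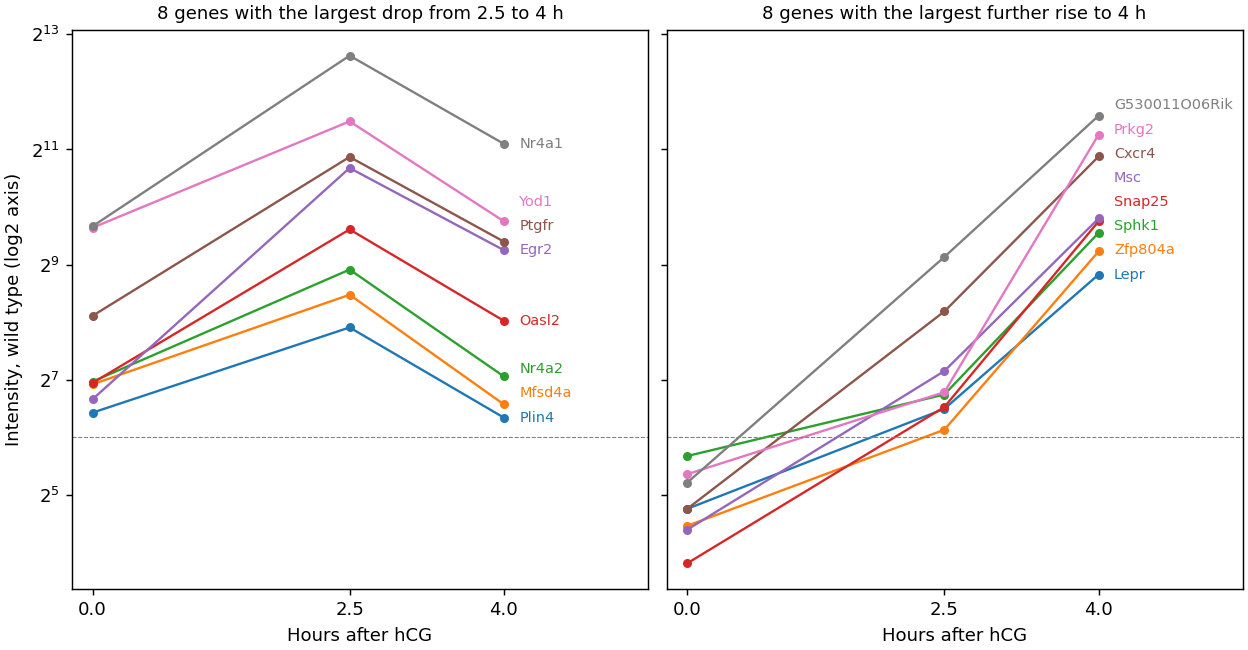
Intensity (log2 axis) in wild type at 0, 2.5 and 4 h after hCG, 1 array per time and 1 line per gene, for the 8 called genes with the largest drop after 2.5 h (left) and the 8 with the largest further rise (right). Of the times measured, Nr4a1 and Egr2 are brightest at 2.5 h, and Prkg2 and Snap25 at 4 h. The dashed line marks 64.

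The called genes were also looked at by size and place in the genome, which the intensities did not use. Genes called higher spanned a median of 20.9 kb from start to end in RefSeq (403 of 407 matched), those at least 4-fold higher 20.3 kb, those called lower 32 kb and all measured genes 24.0 kb. By class of span the share called higher was 4.19% under 5 kb, 2.67% between 25 and 50 kb and 4.08% over 100 kb, with no steady trend from short to long genes. The share called lower was 0.661% under 5 kb, 0.814%, 0.915%, 1.14% and 1.19% in the classes between, and 1.45% over 100 kb, and the median log2 difference went with it, at -0.14 in the shortest and -0.25 in the longest class. The neighbours of higher genes were counted without a test. Of 403 placed, 68 (16.9%) had another higher gene as a direct neighbour among the measured genes, against 6.46% of the genes not called higher. The longest runs had 4 genes. On chromosome 5 the ligand genes Epgn, Ereg and Btc were followed by Parm1, and on chromosome 10 Prdm1, 2310075K07Rik, Prep and Bves stood in a row. Related genes made up some of the other runs, such as Zfp53, Zfp52 and Zfp948, Plin4 with Plin5 and Serpinb9 with Serpinb9b, for which shared target sequence of the probe sets was not tested, while Epdr1 with Sfrp4, Nr4a1 with Atg101, and Mis18a with Mrap are not of a family.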

How the data were processed

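Biotin-labelled cRNA of 6 samples, 1 for each genotype and time, was hybridised to Affymetrix arrays. Per the submitters' processing notes the values come from RMA in the affy package, whose versions are not given in the sources used here. Each deposited intensity is on a linear scale and was rounded to whole numbers by the authors, so dim probe sets move in coarse steps, and log2 was taken of each deposited intensity here. RMA forces a common distribution on the arrays, which hides any change in RNA content per cell. Of 45101 probe sets 34958 named 1 gene in the platform annotation, 932 several and 9211 none, and only the first were used, with 1 probe set per gene (the highest mean log2 over the 6 arrays).

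The members, the 28 pathway lists and the 11 marker lists were chosen with earlier results of these data known. Genes were named by rank (the 15 largest and the 10 largest bounded higher differences, the 15 and 5 largest lower ones, the 8 largest in each list and members described by role, the 8 largest later drops and rises, and the 8 smallest and 8 closest knockout responses), to which the promoter, neighbour and opposite-sign genes were added after their values were seen. The only test was limma 3.58.1 in R 4.3.3 (additive time and genotype, mean log2 of at least 6, prior degrees of freedom 3.99), tested on simulated data, with Benjamini-Hochberg adjustment at 0.05. The number of arrays limits the precision. Alternatives changed the scaling, the limit of 64, an added 32, the probe set rule, the fold and the array without hCG.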

Additional observations from a re-analysis of the deposited data

Results flagged for a closer look

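A few genes had opposite signs in the genotypes by at least 2-fold at hCG 2.5 h, and the difference between genotypes was not tested because each group has 1 array. Hspa1b (a heat shock protein) had a log2 difference of -1.48 in wild type and 1.04 in knockout. Arrdc4 (an arrestin domain protein) had -1.19 in wild type and 1.57 in knockout. Gem was the 1 gene higher in wild type, at 1.29, and lower in knockout, at -1.17. Outside the named genes, 2213 probe sets with no gene name in the annotation reached 64 on an array of the wild type pair, of which 96 were at least 2-fold higher at hCG 2.5 h and 32 lower, and they are not described further.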

How the results depend on the processing

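The count of higher genes stayed between 350 and 565 under 10 alternatives, and was 719 at 1.5-fold and 225 at 3-fold. The 407 genes were all among those called with cyclic loess. The lower count of 118 was less stable, at 50 with cyclic loess, 28 with centred differences, 66 with 32 added, 55 with the mean of all probe sets, 1512 at 1.5-fold, 5 at 3-fold and 641 against the knockout array with no hCG, which kept 65 of the 118. The causes were not tested. In the limma fit the counts of higher and lower genes were 93 and 14, and became 54 and 1 with cyclic loess, 30 and 1 with no limit on the mean, 51 and 5 with the mean of probe sets and 521 and 941 without the 2 arrays at 4 h, where 1 residual degree of freedom is left. The lower count was also 23 with a mean log2 of at least 7 and 30 with an intensity trend and robust prior. At an unadjusted p under 0.05 the unaltered limma fit had 2359 genes. The median of the prostaglandin list turned to 0.04 with cyclic loess, 0.08 with centred differences, 0.02 with no limit and 0.04 with the mean of probe sets. That of the mRNA decay list, 0.06, became -0.00 with the mean of probe sets. Other list medians also moved, among them those of the peptide list (0.26 with no limit), the preovulatory list (-0.21 with cyclic loess) and the heat shock list (0.04 with centred differences). With the knockout array in place of the wild type one without hCG, Hspa1a (0.20), Ptger3 (0.51), Tmem100 (0.29) and Tnfsf11 (-1.75) changed sign, and no other named gene that was called did so under any alternative run. Calls by size were lost for 28 of 150 named higher genes and 12 of 25 named lower genes with the mean of probe sets, and for 17 and 7 with 32 added. No paired analysis was possible because each group has 1 array and the labels give no replicate numbers. Signals under 64 and the single array per group set the limits of what these differences can show.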
